A study of Rattus norvegicus with 10 samples.

Results

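The receptor Ret, its coreceptors Gfra1, Gfra2 and Gfra4, the ligands Gdnf and Nrtn and the adhesion receptor Ncam1 were followed in the left hippocampus. These 7 genes were listed by symbol, and all 7 were found among the 17168 genes of the deposited tables. Ret was picked because its levels in the treated and the untreated animals did not overlap, and the other 6 were added for their roles as its coreceptors, ligands and alternative partner. The libraries came from 10 male TgF344-AD rats killed at 11 months of age. This strain, used to model Alzheimer's disease, bears transgenes driven by the mouse prion promoter, so every animal was transgenic, and wild-type rats were not analysed here. In the untreated group (n = 5) the rats ate plain chow. In the RG2833 group (n = 5) the chow held 750 mg of RG2833, an inhibitor of HDAC1 and HDAC3, per kg, from 5 months of age for 6 months. One sentence of the design text names ibudilast, whereas the title and the treatment label of each sample name RG2833. Each library was taken as 1 rat, as the labels number the animals.

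Ret is a receptor tyrosine kinase that does not bind its ligands alone. A ligand of the GDNF family first binds a GFRα coreceptor, which is held to the membrane by a lipid anchor, and the pair then brings Ret molecules together so that they phosphorylate each other. GDNF acts mainly through GFRα1, neurturin through GFRα2, artemin through GFRα3 and persephin through GFRα4. With GFRα1, GDNF can also signal through the neural cell adhesion molecule NCAM without Ret, and in hippocampal neurons GFRα1 has been described as a ligand-induced adhesion molecule at synapses. Ret is best known for the survival of midbrain dopaminergic, motor, enteric and sensory neurons.

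Total expected counts ran from 15118203 to 18533520 per library, and ribosomal RNA took 4.07% to 11.4% of them. Some markers of dentate granule cells, CA1 and CA3 were present in every library: Prox1 lay between 4.30 and 50.5 CPM (counts per 1000000 counts of the TMM-scaled library size), Wfs1 between 135 and 390.3, and Grik4 between 29.5 and 137. Of the 10 dentate markers, 7 were in the table and 5 were tested, and Tdo2 was at 0 in all 10 libraries. In untreated replicate 2 and RG2833 replicate 1 the summed level of 12 choroid plexus markers was 10746 and 11704 CPM, against 111 to 464 CPM in the other libraries. Untreated replicate 3 was low in dentate markers, by a log2 difference of -1.45 from the mean of the 10 libraries, and in CA3 and CA2 markers, by -0.74. By the quasi-likelihood test of edgeR, 0 of 12161 genes (0%) had an adjusted p under 0.05, and 688 (5.66%) had an unadjusted p under 0.05. Of the 5 tested members other than Ret, 0 had an unadjusted p under 0.05. DESeq2 called 7 genes at an adjusted p under 0.05, and a fit with 2 surrogate variables called 118. The tissue is a mixture of cells, so fewer cells of a type and less RNA per cell cannot be told apart.

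Ret, the signalling receptor, was at 15.5, 14.96, 14.7, 15.7 and 16.6 CPM in untreated replicates 1 to 5. In RG2833 replicates 1 to 5 it was at 18.4, 19.99, 21.7, 19.7 and 21.8 CPM. All 5 treated libraries lay above all 5 untreated ones, and the highest untreated and lowest treated values were 16.6 and 18.4 CPM. The means were 15.5 ± 0.73 and 20.3 ± 1.44 CPM (SD, n = 5 each), and the log2 fold change was 0.39 (SE 0.07). These values chose the gene, so they are a description and no test is given. For scale, 122 of the 12161 genes (1%) had groups that did not overlap, 51 of them (0.419%) with RG2833 higher. The counts behind these levels were 246 to 352 reads per library. In the authors' deposited table of normalized CPM, Ret was at 14.8 to 16.8 in untreated and 18.3 to 22.3 in RG2833 libraries. On totals not scaled at all, the ranges were 14.3 to 16.5 and 18.6 to 21.0 CPM, and with ribosomal RNA left out of the totals they were 16.2 to 17.8 and 19.8 to 23.0 CPM. These are rescalings of the counts that chose the gene, and are given as a description.

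**Figure D1:**
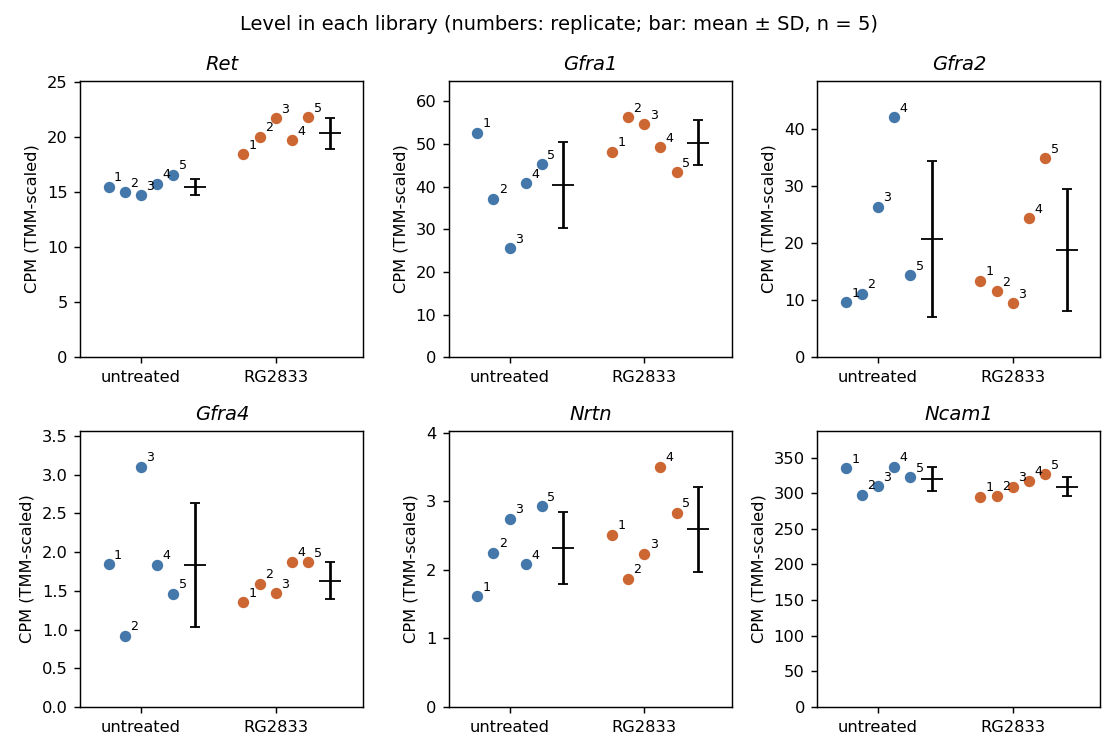
Level of 6 genes in each of the 10 libraries, in CPM on TMM-scaled library sizes; each point is 1 library with its replicate number, and the bar beside each group is the mean ± SD (n = 5). Ret ran from 14.7 to 16.6 CPM in untreated and from 18.4 to 21.8 CPM in RG2833 libraries, while the ranges of the other 5 genes overlapped; Gdnf, with at most 1 count per library, is not drawn.

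The stretch of DNA just upstream of the Ret start is shown because the level of this transcript is the one the gene was picked on. It covers the 250 bases before the annotated start in the RefSeq promoter table of the GRCr8 assembly, at chr4:153040557-153040806 on the minus strand, and capitals mark CG dinucleotides. The same stretch of Gfra1, at chr1:267555812-267556061 on the minus strand, is given for comparison, since this coreceptor had the next largest log2 fold change in size among the tested members.

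Ret: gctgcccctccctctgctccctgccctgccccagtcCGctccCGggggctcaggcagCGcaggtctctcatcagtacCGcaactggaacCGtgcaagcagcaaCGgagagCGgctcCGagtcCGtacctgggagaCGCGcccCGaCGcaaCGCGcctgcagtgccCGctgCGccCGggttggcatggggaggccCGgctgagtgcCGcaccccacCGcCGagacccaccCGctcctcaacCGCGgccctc

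Gfra1: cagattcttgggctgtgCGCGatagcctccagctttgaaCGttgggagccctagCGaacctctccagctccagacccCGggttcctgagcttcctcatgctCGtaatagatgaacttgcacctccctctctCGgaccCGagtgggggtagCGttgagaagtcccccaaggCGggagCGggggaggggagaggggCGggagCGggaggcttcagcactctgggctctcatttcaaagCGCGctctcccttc

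The Ret stretch held 25 CG dinucleotides and 72.8% G and C, and 9.74% of 33469 such upstream stretches held as many CG dinucleotides. Gfra1 held 15, a number reached by 25.8% of them, and the median stretch held 5. Gfra4, Nrtn and Gdnf held 3, 4 and 6. The GC box GGGCGG, searched on both strands, occurred 1 time in the Gfra1 stretch and 0 times in that of Ret, and 30.5% of all stretches held it. The letters TATAAA, searched on both strands, occurred 1 time before Gdnf and 0 times before Ret, Gfra1, Gfra4 and Nrtn, against 12.9% of all stretches. Of the 7 genes, 5 matched an entry; Gfra2 and Ncam1 had none. These matches describe the letters only, and the table's start need not be the one used in hippocampus.

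After the group means were taken out, the genes whose log2 CPM went most closely with Ret over the 10 libraries were Limch1 (Pearson r = 0.933), Desi1 (0.928), Foxp1 (0.899), Magi2 (0.893) and Dkk1 (0.867), out of 11138 candidates. This likeness is a description. In the same libraries the summed level of the 9 astrocyte markers found ran from 5409 to 7903 CPM in untreated and from 6123 to 8741 CPM in RG2833 rats, and 9 of 9 had a positive log2 fold change. For the thalamus list the range was 135 to 213 CPM in untreated and 118 to 144 CPM in RG2833 rats, with 2 of 10 tested genes positive. Of all genes tested, 46.5% were positive. Among the marker lists, astrocytes and thalamus had the smallest exact permutation p for the summed level (0.0794 and 0.0397, unadjusted). Other lists also leaned to one sign, with 7 of 8 endothelial and 0 of 5 dentate genes positive. The part of any of these cell types in the Ret difference was not tested. Within groups, r of Ret was 0.231 with the astrocyte list and -0.257 with the thalamus list (exact permutation p = 0.560 and 0.424). In the 2 libraries rich in choroid plexus RNA, Ret was at 14.96 CPM, the next to lowest untreated value, and at 18.4 CPM, the lowest treated one. Without these 2 the Ret log2 fold change was 0.40. Within groups Ret was low where choroid plexus markers were high, the relation of largest rho in size among 78 of members with marker lists (rho = -0.891, exact p = 0.00361, adjusted 0.0826, n = 10), and it did not pass by r either (adjusted p = 0.0623). Over the 10 libraries r was -0.775 (exact p = 0.00771), and it was -0.588 without RG2833 replicate 1 alone. It was -0.571 without RG2833 replicates 1 and 5, the 2 libraries farthest from the median of Ret once group means were taken out. The 2 choroid-rich libraries form a range of their own, and over the other 8 r was -0.819 (exact p = 0.0365) and rho -0.762 (exact p = 0.0590). For the list of 10 markers of dopaminergic and noradrenergic neurons, cells known to bear Ret, the summed level was 51.1 to 87.3 CPM in untreated and 62.0 to 104.5 CPM in RG2833 rats. Of its 4 tested genes 3 had a positive log2 fold change, with a median of 0.26, and its part in the Ret difference was not tested. Within groups Ret and this list gave r = 0.241 (exact p = 0.541) and rho = 0.309 (exact p = 0.424). Nr4a2, also on the neocortex list, made up most of the summed level of the list, at 32.5 to 85.8 CPM. Other members were scarce: the dopamine transporter Slc6a3 had 0 to 3 counts, the noradrenaline transporter Slc6a2 0 or 1, and Dbh, which makes noradrenaline, 1 to 8 counts per library. Tyrosine hydroxylase, Th, lay between 0.256 and 3.11 CPM.

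Gfra1, the coreceptor for GDNF, had a higher mean in RG2833 rats, and the difference did not pass. It was at 52.6, 37.2, 25.5, 40.8 and 45.3 CPM in untreated replicates 1 to 5, and at 48.1, 56.3, 54.6, 49.2 and 43.3 CPM in RG2833 replicates 1 to 5. The ranges overlapped, mainly through untreated replicate 1, and in 21 of the 25 pairs of a treated and an untreated library the treated one was higher. The means were 40.3 ± 10.0 and 50.3 ± 5.23 CPM (SD, n = 5 each). The log2 fold change was 0.32 (SE 0.16, 95% interval -0.04 to 0.68; edgeR adjusted p = 0.841, exact permutation p = 0.0794, two-sided). The interval reaches from a fold of 0.973 to 1.60, and no change lies inside it. Untreated replicate 3, the lowest library, carried much of the difference: without it the log2 fold change was 0.20. With 2 surrogate variables the estimate was 0.35 and the edgeR adjusted p was 0.0417; across the 21 alternatives the adjusted p lay between 0.0417 and 1.00.

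Gfra2, the coreceptor for neurturin, was the most variable of the tested members. It was at 9.64, 11.2, 26.4, 42.2 and 14.4 CPM in untreated replicates 1 to 5 and at 13.4, 11.6, 9.47, 24.4 and 34.9 CPM in RG2833 replicates 1 to 5. High and low libraries occurred in both groups: 6 libraries lay between 9.47 and 14.4 CPM, and 4 libraries, untreated replicates 3 and 4 and RG2833 replicates 4 and 5, lay between 24.4 and 42.2 CPM. The span from the lowest to the highest library was 4.46-fold, and the coefficient of variation was 65.8% in untreated and 57.1% in RG2833 rats. The means, 20.8 ± 13.7 and 18.8 ± 10.7 CPM (SD, n = 5 each), lay closer together than that spread, with a log2 fold change of -0.15 (SE 0.47, 95% interval -1.19 to 0.90; edgeR adjusted p = 0.982, exact permutation p = 0.786). The sign turned without untreated replicate 4 (0.28) and without RG2833 replicate 3 (0.02). Expected counts of Gfra2 and Ncam1 were not whole in any library, so some of their reads were shared out between sequences.

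By the likeness used for Ret, Stmn1 (r = 0.967), Tnnc2 (0.963), Rxfp1 (0.960) and Hs3st2 (0.954) were among the 5 genes ranked closest to Gfra2. The likeness search was extended from Ret to Gfra1 and Gfra2 after their values were seen. The neocortex list stood at log2 differences of 0.32, 0.37 and 0.60 from the mean of all libraries in untreated replicate 3 and RG2833 replicates 4 and 5. In untreated replicate 4, where Gfra2 was highest, that list stood at -0.0030. Within groups, Gfra2 was high where neocortex markers were high (r = 0.843, exact p = 0.00597; rho = 0.794, exact p = 0.00708) and where striatum markers were high (r = 0.870, exact p = 0.00632; rho = 0.721, exact p = 0.0408; n = 10). After adjustment over the 78 relations of members with marker lists neither passed, by r (0.0616 for each) or by rho (0.0939 and 0.199). Without untreated replicate 4 and RG2833 replicate 5, the 2 libraries farthest from the median of Gfra2 once group means were taken out, r was 0.964 and 0.877. Without the 2 choroid-rich libraries r was 0.829 for neocortex (exact p = 0.0365) and 0.855 for striatum (exact p = 0.0451), and rho was 0.762 (exact p = 0.0521) and 0.595 (exact p = 0.177). For Gfra1 the closest genes were Dgkg (within-group r = 0.978), Xpot (0.976), Apba2 (0.968), Exoc8 (0.968) and Synj1 (0.965).

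**Figure D2:**
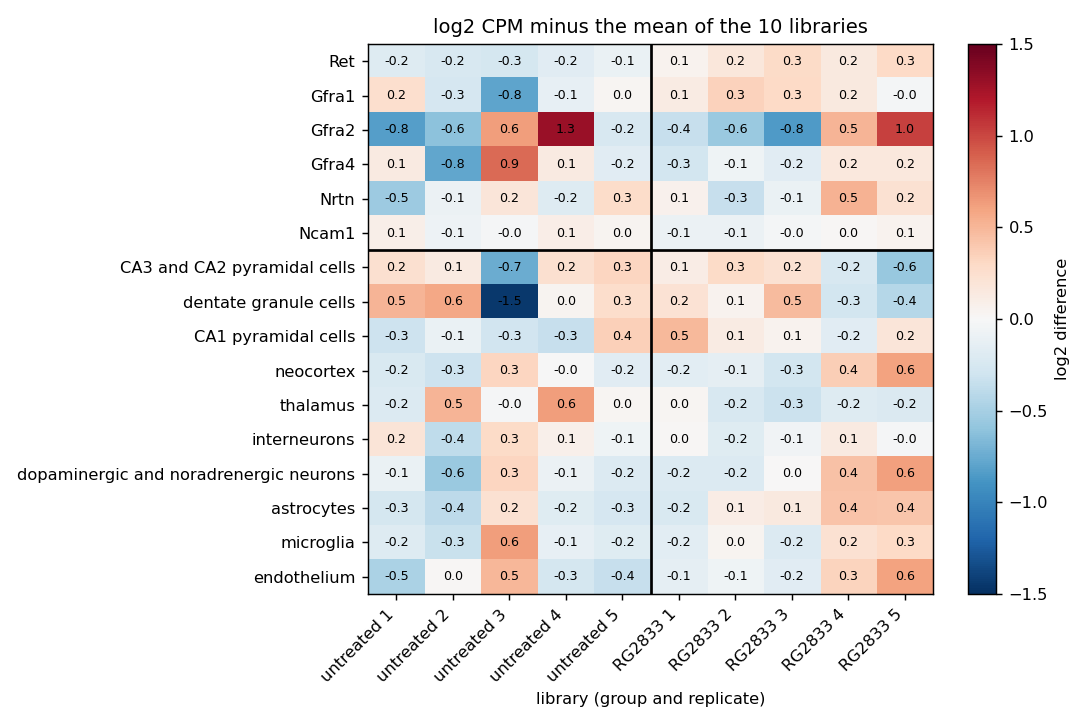
Level of each member (above the black line) and mean level of 10 marker lists (below it) in each library, as log2 CPM minus the mean of the 10 libraries; red is higher and blue lower. Gfra2 was high in untreated replicates 3 and 4 and RG2833 replicates 4 and 5, and Gfra1 and the CA3 and CA2 list were each lowest in untreated replicate 3.

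Gfra4, the coreceptor for persephin, was scarce, with 18 to 52 counts per library. It was at 1.85, 0.922, 3.10, 1.84 and 1.47 CPM in untreated replicates 1 to 5 and at 1.36, 1.59, 1.47, 1.88 and 1.87 CPM in RG2833 replicates 1 to 5. The untreated range enclosed the treated one, and the log2 fold change was -0.16 (SE 0.29, 95% interval -0.80 to 0.47; edgeR adjusted p = 0.965, exact permutation p = 0.722, n = 5 each). Without untreated replicate 3, the highest library, the sign turned, to 0.11.

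Of the ligands, Nrtn, which encodes neurturin, was detected in every library and Gdnf was close to nil. Nrtn was at 1.62, 2.25, 2.75, 2.08 and 2.93 CPM in untreated replicates 1 to 5 and at 2.52, 1.87, 2.24, 3.51 and 2.84 CPM in RG2833 replicates 1 to 5, from 28 to 56 counts. The groups overlapped almost wholly. The log2 fold change was 0.15 (SE 0.22, 95% interval -0.32 to 0.63; edgeR adjusted p = 0.950, exact permutation p = 0.484, n = 5 each), and it was 0.02 without RG2833 replicate 4. Gdnf had 1 count in untreated replicate 5, 1 count in RG2833 replicate 2 and 0 in the other 8 libraries. A count of 0 allows up to 3 counts, which is 0.154 to 0.207 CPM in these libraries, for counting error only. Gdnf did not pass the filter on low counts, both groups lay under that limit, and no fold is given.

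Ncam1, the partner through which GDNF and GFRα1 can signal without Ret, had a narrow spread between libraries. It was at 335, 298, 310.1, 337 and 322 CPM in untreated replicates 1 to 5 and at 295, 297, 309, 317 and 327 CPM in RG2833 replicates 1 to 5. Its coefficient of variation was 5.25% in untreated and 4.41% in RG2833 rats. The ranges overlapped, with means of 321 ± 16.8 and 309 ± 13.6 CPM (SD, n = 5 each). The log2 fold change was -0.05 (SE 0.06, edgeR adjusted p = 0.938, exact permutation p = 0.254), and its 95% interval, -0.19 to 0.08, corresponds to folds of 0.879 to 1.06.

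**Figure D3:**
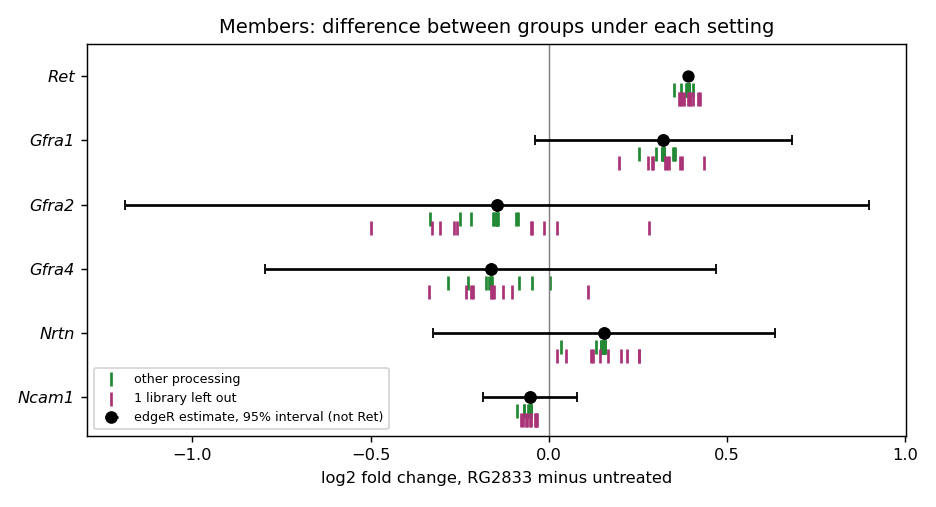
Log2 fold change of 6 genes, RG2833 minus untreated; black points are edgeR estimates with 95% intervals (none is drawn for Ret, which was chosen on this contrast), green ticks are other processing settings and purple ticks leave out 1 library each. The interval of Ncam1 is narrow (-0.19 to 0.08) and that of Gfra2 wide (-1.19 to 0.90).

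Levels of the members did not go together within groups in a way that passed. Over the 15 pairs of the 6 tested genes, correlations of log2 CPM with group means taken out gave 0 pairs at an adjusted p under 0.05 (exact permutation within groups, n = 10 libraries), by Pearson's r or by Spearman's rho. By unadjusted values, 0 pairs by r and 1 by rho were under 0.05. That pair was Ret with Ncam1 (r = 0.588, exact p = 0.0863, adjusted 0.444; rho = 0.709, exact p = 0.0393, adjusted 0.477). Its r was 0.382 without RG2833 replicates 1 and 5, the 2 libraries farthest from the median of Ret once group means were taken out. For Ret with Gfra1, r was 0.327 and rho 0.382 (exact p = 0.301 and 0.280, adjusted 0.568 and 0.524), and r was 0.573 without the same 2 libraries. A relation between the receptor and its main coreceptor from rat to rat was not detectable with 10 libraries.

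Gfra1 and Gfra4 went with several marker lists, which themselves moved together between libraries. Of 78 relations between the 6 genes and 13 marker lists, 5 passed by Pearson's r (adjusted p = 0.0282 for each, exact permutation within groups, n = 10). Gfra1 was high where markers of CA3 and CA2 pyramidal cells were high (r = 0.863, exact p = 0.00181; rho = 0.879, exact p = 0.00153) and where endothelial markers were low (r = -0.876, exact p = 0.00125; rho = -0.794, exact p = 0.0134). Without untreated replicates 1 and 3, the 2 farthest from the median of Gfra1 once group means were taken out, the r values were 0.830 and -0.794. Gfra1 also had an r of 0.837 with dentate granule cells and -0.768 with microglia, which did not pass (adjusted p = 0.130 and 0.216, same test). Gfra4 was high with microglial (r = 0.867), astrocyte (0.803) and catecholamine neuron markers (0.820), for which rho was 0.855, 0.855 and 0.867 (exact p = 0.00722, 0.00424 and 0.00417). Without untreated replicates 2 and 3, the 2 farthest from the median of Gfra4 once group means were taken out, the r values were 0.817, 0.815 and 0.800. Relations of Gfra4 of like size did not pass: r was 0.868 with interneurons and -0.845 with dentate granule cells (adjusted p = 0.0758 and 0.0623, same test). The catecholamine list rests on 4 tested genes, of which Nr4a2, also on the neocortex list, was the most abundant.

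By Spearman's rho the adjusted p of the 5 relations ran from 0.0826 to 0.131, so none passed on ranks. Untreated replicate 3 gave the lowest r in size for each of the 5; without it they were 0.637 for CA3 and CA2, -0.776 for endothelium, 0.676 for microglia, 0.643 for astrocytes and 0.762 for catecholamine neurons. The sizes of r thus stayed at 0.637 or more, while the number that passed changed with the library left out. It was 0 without untreated replicates 2 or 5 or any one RG2833 library, 5 without untreated replicate 1, 4 without untreated replicate 3 and 12 without untreated replicate 4. Without the 2 libraries rich in choroid plexus RNA the r values were 0.905, -0.934, 0.941, 0.914 and 0.745 in the same order. There rho was 0.833, -0.833, 0.857, 0.619 and 0.643 (exact p = 0.0174, 0.0174, 0.0365, 0.137 and 0.0747). All levels share the libraries' depth and scaling. The lists also moved together. In untreated replicate 3 and RG2833 replicates 4 and 5 the CA3 and CA2 list was low, at log2 differences of -0.74, -0.24 and -0.57. There the endothelium list was high (0.50, 0.33 and 0.60), as was the microglia list (0.63, 0.22 and 0.30). The 5 relations are therefore not separate results.

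**Figure D4:**
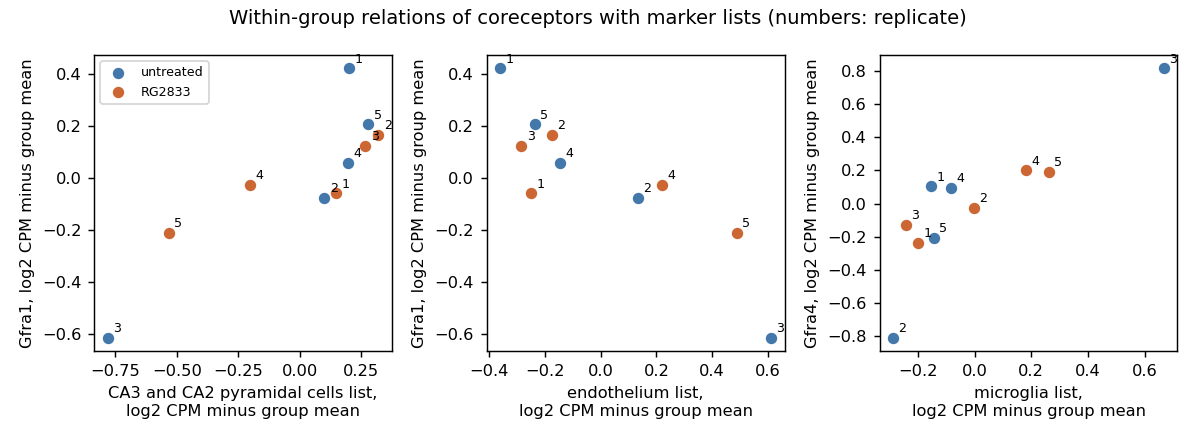
Within-group relations of Gfra1 with the CA3 and CA2 list and the endothelium list, and of Gfra4 with the microglia list; both axes are log2 CPM minus the group mean, each point is 1 library with its replicate number, and colours give the group. Untreated replicate 3 lies at an end of each panel, and the r values were 0.863, -0.876 and 0.867.

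Other genes of the pathway were taken from 4 lists arranged by role. Of their 67 genes, 63 were in the table and 54 were tested. None passed edgeR's adjusted threshold in either direction, and 2 of 54 (3.70%) had an unadjusted p under 0.05, against 5.66% of all genes. Of these, 1 was higher and 1 lower in RG2833 rats, where 2.94% of all genes were higher and 2.71% lower. The median log2 fold change was 0.06, against -0.01 over all genes tested, and 34 of 54 had a positive sign, against 46.5% of all genes. Leaving out untreated replicate 2 or RG2833 replicate 4 brought the count of 2 to 0. Leaving out untreated replicate 3 gave 7, RG2833 replicate 1 gave 4 and RG2833 replicate 2 gave 5.

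Among the other ligands and receptors, 7 of 12 were tested, with a median log2 fold change of 0.0048. Pspn, the persephin ligand of GFRα4, had 8 to 16 counts per library and means of 0.699 ± 0.195 and 0.783 ± 0.035 CPM, a log2 fold change of 0.17 (SE 0.23, adjusted p = 0.950 by edgeR). Artn, the artemin ligand, had 3 to 13 counts, and its receptor Gfra3 had 0 or 1 count except for 9 in untreated replicate 2. Gfral, the hindbrain receptor for GDF15 that also signals through Ret, was named after its values were seen. It was at 1.44, 0.768, 0.597, 1.04 and 1.09 CPM in untreated and at 1.61, 1.42, 1.02, 2.32 and 1.24 CPM in RG2833 replicates 1 to 5, from 10 to 37 counts. The ranges overlapped, and the log2 fold change of 0.63 (SE 0.29) did not pass (edgeR adjusted p = 0.841, exact permutation p = 0.0794). Gdf15, its ligand, was highest in both libraries rich in choroid plexus RNA, with 45 counts in untreated replicate 2 and 69 in RG2833 replicate 1 against 0 to 9 elsewhere.

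Adaptors and enzymes of signalling by Ret, or by GFRα1 and NCAM, gave 29 tested genes, 18 with a positive and 11 with a negative sign, and 0 at an unadjusted p under 0.05. Src, a kinase activated by GDNF with or without Ret, had means of 105 ± 5.00 and 117 ± 11.9 CPM (SD, n = 5 each) and a log2 fold change of 0.16 (SE 0.08, adjusted p = 0.841 by edgeR). Fyn and Ptk2, kinases that act downstream of NCAM, had log2 fold changes of 0.08 (SE 0.08) and 0.06 (SE 0.05), and Frs2 and Grb2, adaptors of Ret, of 0.12 (SE 0.13) and -0.02 (SE 0.07). For Fyn the SD within groups was 7.41 and 13.4 CPM, against a difference of means of 7.13. It was 5.55 and 5.44 CPM against 5.26 for Ptk2, and 24.6 and 11.5 against 10.4 for Frs2. For Grb2 it was 24.4 and 9.14 CPM against -3.03. The SD in each group was thus larger than the size of the difference for these genes, which was not so for Src.

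Of the 12 genes that Ret and related receptors induce or that curb their signal, 9 had a positive sign and the median log2 fold change was 0.15. Spred2, an inhibitor of the Ras and ERK route, was at 25.0, 22.2, 28.8, 24.1 and 21.6 CPM in untreated and at 25.7, 24.8, 31.9, 31.1 and 30.2 CPM in RG2833 replicates 1 to 5. Treated libraries were higher in 22 of 25 pairs, the ranges overlapped, and the difference did not pass (log2 fold change 0.24, SE 0.10; edgeR p = 0.0378, adjusted p = 0.841; exact permutation p = 0.0556). Etv5, a transcription factor induced by GDNF, had means of 72.5 ± 8.16 and 82.8 ± 8.49 CPM (log2 fold change 0.19, SE 0.10), and Spry2, a feedback inhibitor, 57.8 ± 3.76 and 64.2 ± 5.59 CPM (0.15, SE 0.07). Another Sprouty gene, Spry1, had the opposite sign, at 2.49 ± 0.61 and 1.91 ± 0.41 CPM (-0.39, SE 0.22). So did Egr1 (-0.25, SE 0.17) and Vgf (-0.25, SE 0.17), the remaining negative genes of the list. The edgeR adjusted p was 0.841 for Etv5, Spry2 and Spry1 and 0.881 for Egr1 and Vgf. All of these were named after their values were seen.

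Of 12 transcription factors known to drive Ret in other tissues, 6 were tested, 3 with each sign. Nkx2-1, which specifies ventral forebrain and hypothalamic cells, was at 0.923, 2.41, 1.43, 4.59 and 0.706 CPM in untreated and at 0.968, 0.568, 1.151, 0.689 and 0.830 CPM in RG2833 replicates 1 to 5. Untreated replicates 2 and 4 stood above the rest, and the log2 fold change of -1.25 (SE 0.49; edgeR p = 0.0282, adjusted p = 0.841; exact permutation p = 0.0952) was -0.71 without untreated replicate 4. In the same 2 libraries the thalamus list was highest, at log2 differences of 0.51 and 0.62; its part in the Nkx2-1 level was not tested. Phox2a, a driver of Ret in autonomic neurons, had 1.01 to 9.06 expected counts per library, and Pax3 and Hoxb5 had 0 to 4 and 0 to 3.

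**Figure D5:**
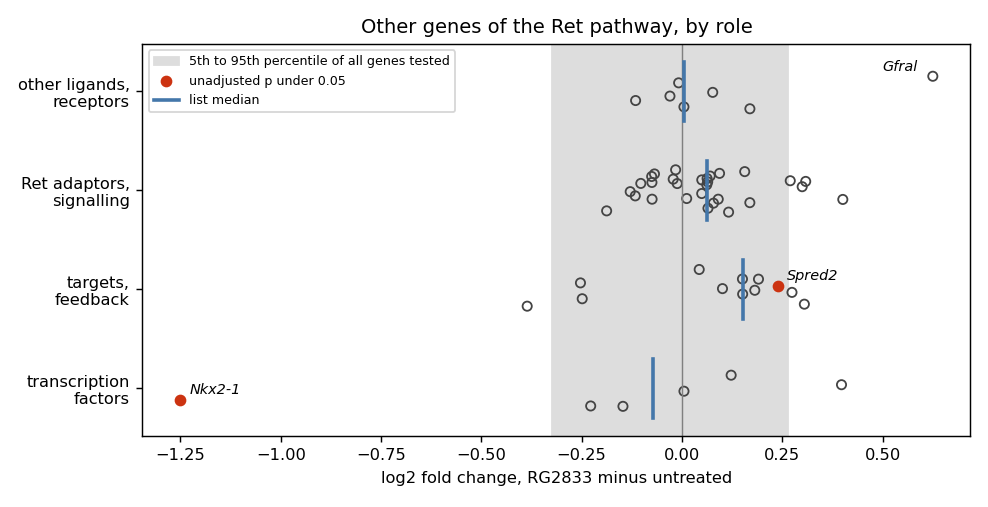
Log2 fold change, RG2833 minus untreated, of the 54 tested pathway genes in 4 lists; each circle is 1 gene, filled red at an unadjusted p under 0.05, blue bars are list medians, and the grey band is the 5th to 95th percentile of all genes tested (-0.32 to 0.26). Most circles lie in the band, and Nkx2-1 at -1.25 and Gfral at 0.63 lie farthest outside it.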

How the data were processed

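RNA of the left hippocampus was sequenced as stranded mRNA libraries, per the labels' protocols. The authors deposited expected counts for each gene, estimates that need not be whole (11.6% were not). The submitters' processing notes list bcl2fastq 2.17, Bowtie2 2.1.0, RSEM 1.2.15, edgeR and the build rn6; the annotation is not given in the sources used here. The authors' second table is a TMM-normalized CPM signal, whose values were whole multiples of a step in 100% of cases (within 0.05) and gave back the rounded counts in 100%. CPM computed here differed from the deposited CPM by at most 2.85%.

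Expected counts were rounded and tested with edgeR 4.0.16 in R 4.3.3: filterByExpr (minimum count 10, minimum total 15), TMM scaling and the robust quasi-likelihood F test, RG2833 against untreated, with Benjamini-Hochberg adjustment over 12161 genes and a threshold of 0.05. Intervals and standard errors come from the F statistic. A prior count of 2 went into log2 CPM. An exact permutation test (two-sided, 252 regroupings, smallest p 0.00794) was added for single genes. Correlations used values with group means removed and all permutations within groups. The 2 libraries farthest from the median of a gene were also found on values with group means removed. The smallest chi-square per gene over the 45 library pairs was 7.46, so no library was counted as a copy. P-values measure the spread between these rats.

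The members and gene lists were chosen with earlier results of these data known. Named genes are the 7 members, pathway genes at an unadjusted p under 0.05, the 5 genes most like Ret, and markers highest in their list or at 0, with exceptions stated; the other pathway genes printed with values (Pspn, Artn, Gfra3, Gdf15, Src, Fyn, Ptk2, Frs2, Grb2, Phox2a, Pax3 and Hoxb5) and the markers Prox1, Wfs1, Grik4, Slc6a3, Slc6a2, Dbh and Th fall outside it and were chosen after their values were seen. Another gene is not reported here. Transcript lengths were not used here, so where levels of different genes are set side by side, as within a marker list, they compare reads and not transcripts. On simulated data, 38% of 200 genes changed 1.5-fold and 80.5% of those changed 2-fold were recovered for this comparison (12120 and 12103 genes). Alternatives were other scalings, filters and tools (DESeq2 1.42.0, limma 3.58.1, sva 3.50.0), a replicate block, removal of ribosomal RNA genes and leaving out libraries.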

Additional observations from a re-analysis of the deposited data

Results flagged for a closer look

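For the 7 members, Spred2, Nkx2-1 and Gfral, the highest and lowest library of each group of 5 were examined, and a library was listed when its gap to the next one exceeded 0.71 of the range. Of 20 such sets, 2 did so, where chance gives 1. Both are Gdnf, at 0.0543 CPM in untreated replicate 5 and 0.0568 CPM in RG2833 replicate 2, against 0 in the other libraries of each group. Each value is 1 count, so the gap is the smallest that counts can show.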

How the results depend on the processing

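Under 21 alternatives the log2 fold change of Ret was 0.35 to 0.42; its sign was fixed by the choice of the gene and says nothing of stability. Gfra1 was positive in 21 of 21 (0.20 to 0.44), Nrtn in 21 of 21 (0.02 to 0.25) and Ncam1 negative in 21 of 21 (-0.09 to -0.03). Leaving out 1 library put Gfra2 between -0.50 and 0.28 and Gfra4 between -0.34 and 0.11; with limma-voom and sample weights Gfra4 was at 0.0040, and the cause was not tested. The number of genes past the threshold was 0 except with DESeq2 (7) and 2 surrogate variables (118, with Gfra1 at 0.35), where the cause was not tested. The number with an unadjusted p under 0.05 was 1952 with 2 surrogate variables and 1267 with sample weights, and between 375 (RG2833 replicate 4 left out) and 1732 (untreated replicate 3 left out) over single libraries. No pathway gene passed under any alternative; those with an unadjusted p under 0.05 numbered 1 with upper-quartile scaling, the 1 CPM filter or no choroid-rich library, 4 with no filter and 10 with 2 surrogate variables. The number of member and marker-list relations that passed ran from 0 to 12 when 1 library was left out, and was 5 on the CPM scale.

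Animals that share a replicate number share only the number: their deviations from the group means correlated at -0.49 to -0.03 over genes, and with the replicate block 0 genes passed, 401 had an unadjusted p under 0.05, 4 of them in the pathway lists, and Gfra1 was at 0.35, Gfra2 at -0.09 and Gfra4 at -0.08. Depth limits Gdnf (at most 1 count). Counts were also low for Gfra4, Nrtn, Pspn and Gfral (8 to 56). The widest interval of a member was that of Gfra2, at 147.94 to 689.22 expected counts. Recomputing relations without the choroid-rich libraries was chosen after seeing the data for relations of Ret and Gfra2.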
